A study of Mus musculus with 15 samples.

Results

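The interferon response genes are a list of 39 mouse genes, named by symbol, that interferon induces or that sense foreign nucleic acid and carry the signal on. Of the 39, 37 were measured, among 22180 genes in all. A gene was measured where a probe set of the array carried its symbol and no other. Where several did, the brightest by its average across the 15 arrays was used. Ifi44 and Dtx3l had no such probe set and are not analysed here. The 37 genes fall into 10 nucleic acid sensors, 8 genes of signalling and regulation, 16 antiviral effectors and 3 genes of antigen transport and chemotaxis.

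Cells recognise foreign nucleic acid in the cytoplasm through sensors such as RIG-I, MDA5 and the oligoadenylate synthetases, and answer by secreting type I interferon. Interferon bound to its receptor leads to assembly of the ISGF3 complex, of which STAT2 and IRF9 are subunits, and the complex switches on genes that carry an interferon-stimulated response element. Many of the sensors and signalling factors are themselves targets of this pathway, which works in melanocytes as in most other cell types. HIF-1α, the oxygen-regulated transcription factor encoded by Hif1a, is stabilised when oxygen is low.

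Transcript levels were measured on one-colour Affymetrix arrays in melan-Ink4a-Arf-1 (melan-a), an immortalized line of mouse melanocytes from Cdkn2a tm1RDp/tm1RDp mice, so that all groups lack the Cdkn2a tumour suppressor and rest on 1 line. The medium of every group held cholera toxin (200 pM), a phorbol ester (200 nM) and 10% serum, and cells were kept at 37 °C. The 5 groups of 3 arrays were normoxia (about 21% oxygen and 10% CO2), a hypoxia control, a hypoxic negative control, and 2 groups with small interfering RNAs against Hif1a, Si1 and Si6. The 4 hypoxic groups spent 24 h in 1% oxygen, 5% CO2 and 94% nitrogen, so oxygen and CO2 changed together and cannot be told apart. The siRNAs were transfected 24 h before hypoxia, and what the hypoxia control and the negative control received is not stated in the labels. The series describes biological triplicates, but the labels do not say whether the 3 arrays of a group came from separately handled cultures, so p-values measure the spread between these samples, which may be technical.

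The promoters of 4 members are shown. Of the measured members whose promoter held the element through which ISGF3 acts, these had group means furthest apart. RefSeq (GRCm38.p6) held a promoter, from 250 bases before to 50 bases after the transcription start, for 28 of the 39 genes. The element was searched on both strands as GAAA, any 2 bases, and GAAA again. The capitals mark its matches, which read TTTC, any 2 bases, and TTTC where they lie on the opposite strand. Ddx58 (chr4:40239776-40240075, minus strand) encodes the RNA sensor RIG-I, Stat2 (chr10:128270248-128270547, plus strand) a subunit of ISGF3, Ifit1 (chr19:34640639-34640938, plus strand) a protein that binds foreign RNA, and Cxcl10 (chr5:92348840-92349139, minus strand) a chemokine for T cells.
Ddx58: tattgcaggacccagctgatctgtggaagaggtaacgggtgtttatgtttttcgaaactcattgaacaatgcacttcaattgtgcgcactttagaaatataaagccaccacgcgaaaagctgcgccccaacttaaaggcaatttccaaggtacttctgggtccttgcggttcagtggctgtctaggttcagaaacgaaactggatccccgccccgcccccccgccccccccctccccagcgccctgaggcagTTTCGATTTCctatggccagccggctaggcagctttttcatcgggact
Stat2: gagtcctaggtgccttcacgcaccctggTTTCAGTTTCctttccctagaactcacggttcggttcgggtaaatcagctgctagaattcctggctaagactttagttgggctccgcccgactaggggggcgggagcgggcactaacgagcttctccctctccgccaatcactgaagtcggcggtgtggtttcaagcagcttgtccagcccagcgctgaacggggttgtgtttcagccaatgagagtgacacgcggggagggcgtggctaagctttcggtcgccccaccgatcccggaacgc
Ifit1: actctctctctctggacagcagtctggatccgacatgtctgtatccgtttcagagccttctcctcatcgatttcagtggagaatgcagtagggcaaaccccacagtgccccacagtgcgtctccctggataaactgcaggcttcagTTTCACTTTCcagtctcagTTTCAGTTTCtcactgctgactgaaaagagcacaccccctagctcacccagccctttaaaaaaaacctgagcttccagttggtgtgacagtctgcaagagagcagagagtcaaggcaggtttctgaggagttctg
Cxcl10: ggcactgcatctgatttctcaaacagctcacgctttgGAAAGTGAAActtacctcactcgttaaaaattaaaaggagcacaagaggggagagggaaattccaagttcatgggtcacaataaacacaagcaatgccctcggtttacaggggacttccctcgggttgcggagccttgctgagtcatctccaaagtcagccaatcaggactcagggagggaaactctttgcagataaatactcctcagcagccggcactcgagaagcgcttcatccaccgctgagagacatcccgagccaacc
The element lay in the promoters of 11 of the 28 members (39.3%) and of 1079 of all 27025 genes with a promoter in the table (3.99%). A match is a description of the letters and does not show binding. The core of the hypoxia response element, ACGTG or GCGTG on either strand, lay in the promoters of 15 of the 28 members (53.6%) and of 46.7% of all genes. The promoters of Oasl2, Herc6 and Samd9l, which belong to the members that varied most, held no match to the element in this window, and the Oasl2 promoter held 2 matches to the hypoxia core. No promoter is given for Ccl5, Usp18 and Ifi204.

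The siRNA target was lower in both siRNA groups. Hif1a had a mean log2 intensity of 8.65 ± 0.09 in Si1 and 8.93 ± 0.04 in Si6, beside 10.63 ± 0.06 in the negative control, 10.59 ± 0.05 in the hypoxia control and 10.34 ± 0.03 in normoxia (SD, 3 arrays in each group here and throughout). The level was lower on every siRNA array than on any other array. Array medians lay between 6.52 and 6.61, and arrays correlated at 0.9931 to 0.9957 within a group and 0.9782 to 0.9931 between groups.

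The interferon response genes as a whole were higher in the negative control and Si1 than in normoxia, the hypoxia control and Si6. The mean log2 level over the 37 genes ran from 7.30 to 7.33 on the normoxia arrays, from 7.33 to 7.34 on the hypoxia control arrays, from 7.73 to 7.78 on the negative control arrays, from 7.68 to 7.86 on the Si1 arrays and from 7.34 to 7.43 on the Si6 arrays. The negative control and Si1 arrays overlapped with each other, and neither overlapped with the arrays of the other groups. In bulk RNA, more cells expressing these genes and more RNA per cell cannot be told apart. Group means of single genes were highest in Si1 for 20 members, in the negative control for 11, in normoxia for 3 (Ifit2, Rsad2 and Cmpk2), in Si6 for 2 (Herc6 and Cxcl10) and in the hypoxia control for 1 (Mx1). They were lowest in Si6 for 16 members, in normoxia for 12, in the hypoxia control for 8 and in Si1 for 1 (Ifit2). Of the 37 members 35 differed among the 5 groups by limma's F test with Benjamini-Hochberg adjustment over all genes, as did 50.1% of all genes. Oas3 (adjusted p = 0.589) and Ifit3 (adjusted p = 0.110) did not pass.

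The deposited values hold no detection calls, so a gene was called dim in a group where its mean lay below 6.90, the median over all genes. Dim in all 5 groups, by the probe set used, were 7 members, the sensors Oas2, Oas3 and Ifi204 and the effectors Isg15, Mx1, Mx2 and Rtp4. A further 9 were dim in some groups (Ifih1, Dhx58, Oasl1, Oasl2, Zbp1, Ifit1, Parp14, Samd9l and Ccl5) and 21 in none. For Mx1 all 5 group means (5.02 to 5.50) also lay under 5.61, the line below which the lowest 25% of all genes lie, as did 4 of the 5 for Ifi204 and 3 of the 5 for Mx2. The change of a dim gene is measured on a compressed scale, and Ifi204 has near relatives in its gene family, so its values are uncertain. The 9 melanocyte markers measured were dim in no group, as the label of the line requires.

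**Figure D1:**
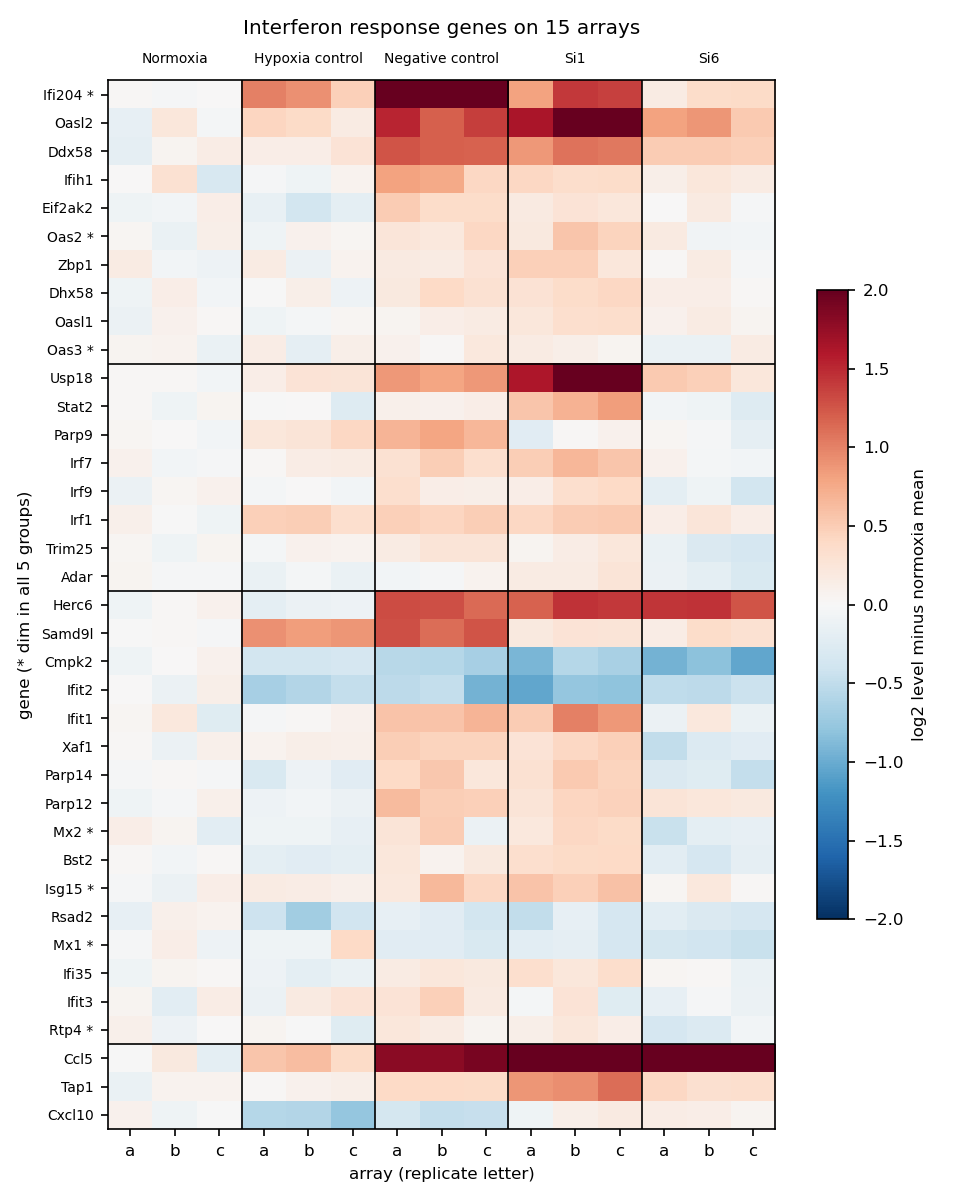
Log2 level of each measured interferon response gene on each of the 15 arrays, minus the gene's normoxia mean, as colour (red higher, blue lower; colours are capped at 2 log2 units in either direction). Rows are genes grouped by role, with sensors first, then signalling, effectors, and antigen transport and chemokines; columns are arrays by group and replicate letter; a star marks the 7 genes dim in all groups. The negative control and Si1 columns hold the most red, while Ifit2 and Cmpk2 are blue in all 4 hypoxic groups.

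Comparisons that name the same group share its arrays. The first comparison sets the hypoxia control, with no siRNA or negative control label, beside normoxia. Members moved in both directions. The effector Samd9l (0.88 ± 0.06, log2 difference ± standard error, adjusted p = 1.1e-07), the DNA sensor Ifi204 (0.79 ± 0.14, adjusted p = 8.5e-04), the chemokine Ccl5 (0.53 ± 0.12, adjusted p = 0.005) and the transcription factor Irf1 (0.44 ± 0.06, adjusted p = 9.4e-05) rose. Cxcl10 fell by 0.64 ± 0.08 (adjusted p = 1.9e-05), Ifit2, which binds viral RNA, by 0.57 ± 0.11 (adjusted p = 0.001), Rsad2, the antiviral enzyme viperin, by 0.50 ± 0.10 (adjusted p = 0.002) and its genomic neighbour Cmpk2, a mitochondrial nucleotide kinase, by 0.36 ± 0.08 (adjusted p = 0.004). Of 37 members 11 passed the test in limma, 5 higher and 6 lower, beside 21.0% of all genes (9.87% higher and 11.2% lower). The median difference of the members was 0.01, beside 0.00 over all genes. The other 3 calls rested on single arrays. Parp9 (0.31) did not pass without normoxia array c or hypoxia control array c (0.25 to 0.28, adjusted p = 0.058 to 0.080). Bst2 (-0.20) did not pass without normoxia array a or c or hypoxia control array b (-0.19, adjusted p = 0.057 to 0.069). Eif2ak2 (-0.24) failed without normoxia array b or c or hypoxia control array b or c (-0.26 to -0.17, adjusted p = 0.053 to 0.182).

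The second comparison sets the negative control beside the hypoxia control, both hypoxic and both without siRNA against Hif1a. Members rose in all 4 roles. Of 37 members 20 passed the test, 19 higher and 1 lower, beside 15.3% of all genes (7.80% higher and 7.51% lower), and the median difference was 0.30, beside -0.01 over all genes. Higher were 6 of 10 sensors, 3 of 8 signalling genes, 8 of 16 effectors and 2 of 3 genes of antigen transport and chemotaxis. Rises past 1 log2 unit were those of Ifi204 (2.17 ± 0.14), Herc6 (1.38 ± 0.08), Ccl5 (1.31 ± 0.12), Oasl2 (1.04 ± 0.15) and Ddx58 (1.03 ± 0.08), all with adjusted p of 1.8e-04 or less. Smaller rises were those of the sensor kinase PKR, encoded by Eif2ak2 (0.66 ± 0.08, adjusted p = 2.1e-05), the zinc finger antiviral factor Parp12 (0.62 ± 0.07, adjusted p = 1.2e-05), Usp18 (0.62 ± 0.11, adjusted p = 0.001) and Parp14 (0.59 ± 0.09, adjusted p = 1.5e-04). Single arrays decided 3 of the calls. Dhx58 (0.30) did not pass without hypoxia control array c or negative control array b (0.24 to 0.25, adjusted p = 0.062 to 0.067). Irf7 (0.26) did not pass without hypoxia control array a or negative control array b (0.20 to 0.21, adjusted p = 0.096 to 0.106). The single fall, of Mx1 (-0.33), did not pass without hypoxia control array c or any negative control array (-0.34 to -0.17, adjusted p = 0.090 to 0.190). The brighter of 2 probe sets of Ifi35 rose (0.34), and with the mean of both it did not pass (0.10, adjusted p = 0.230). The dimmer had means of 7.16 in normoxia, 7.13 in the hypoxia control and 6.99 in the negative control. With Si1 and Si6 its means were 7.01 and 7.03, so it did not follow the Ifi35 calls given below, which are those of the brighter.

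Against normoxia the negative control had 26 of 37 members past the test, 23 higher and 3 lower, beside 30.3% of all genes (14.6% higher and 15.7% lower). The lower ones were Ifit2 (-0.65 ± 0.11, adjusted p = 2.2e-04), Cmpk2 (-0.60 ± 0.08, adjusted p = 2.7e-05) and Cxcl10 (-0.43 ± 0.08, adjusted p = 4.4e-04). Under median centring of the arrays the share of higher genes among all called genes in this comparison moved from 48.0% to 37.0%, and 24 members passed. Single arrays decided 4 of the calls, all rises, those of Bst2 (0.17; 0.14 to 0.18 without any normoxia array or negative control array a or c, adjusted p = 0.056 to 0.147), Ifi35 (0.20; 0.16 to 0.20 without normoxia array a or negative control array b or c, adjusted p = 0.051 to 0.095), Oas2 (0.28; 0.22 to 0.31 without normoxia array a or b or negative control array a or c, adjusted p = 0.059 to 0.163) and Trim25 (0.22; 0.18 to 0.21 without normoxia array b or negative control array b or c, adjusted p = 0.064 to 0.101).

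The siRNA groups were each compared with the negative control, which both comparisons share. In Si1 members moved both ways. Higher were 3 of 3 genes of antigen transport and chemotaxis, 4 of 8 signalling genes, 2 of 10 sensors and 1 of 16 effectors. Lower were 2 sensors, 1 signalling gene and 1 effector. Of 37 members 14 (37.8%) passed the test, near the share of all genes (34.9%). Of these 10 were higher and 4 lower, beside 20.2% higher and 14.8% lower over all genes, and the median difference was 0.06. The split is not stable to scaling, since quantile normalization turned it to 8 higher and 9 lower. Rises were led by Ccl5 (1.34 ± 0.12, adjusted p = 3.0e-07), Usp18 (1.11 ± 0.11, adjusted p = 1.2e-06), Oasl2 (0.61 ± 0.15, adjusted p = 0.004), Stat2 (0.58 ± 0.08, adjusted p = 3.7e-05), the peptide transporter subunit Tap1 (0.58 ± 0.07, adjusted p = 5.6e-06) and Cxcl10 (0.49 ± 0.08, adjusted p = 8.8e-05). Falls were those of Ifi204 (-1.76 ± 0.14, adjusted p = 1.0e-07), Samd9l (-0.98 ± 0.06, adjusted p = 8.5e-09) and Parp9 (-0.75 ± 0.08, adjusted p = 2.7e-06). The remaining 5 calls were small and rested on single arrays. Ddx58 (-0.21) did not pass without any negative control array or Si1 array a or c (-0.24 to -0.15, adjusted p = 0.059 to 0.212). Irf7 (0.20) did not pass without negative control array a or c or Si1 array b or c (0.15 to 0.21, adjusted p = 0.060 to 0.151). Oasl1 (0.19) did not pass without negative control array a or b or Si1 array b or c (0.15 to 0.19, adjusted p = 0.060 to 0.127). Adar (0.20) did not pass without negative control array a or b or Si1 array c (0.17 to 0.19, adjusted p = 0.055 to 0.072). Bst2 (0.21) did not pass without negative control array b (0.15, adjusted p = 0.066).

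In Si6 most members were below the negative control. Of 37 members 26 passed the test, 1 higher and 25 lower, beside 28.9% of all genes (17.0% higher and 11.9% lower), and the median difference was -0.34, beside -0.01 over all genes. Lower were 8 of 8 signalling genes, 12 of 16 effectors and 5 of 10 sensors. The larger falls were those of Ifi204 (-2.66 ± 0.14, adjusted p = 2.8e-09), Samd9l (-0.95 ± 0.06, adjusted p = 2.7e-08), the XIAP-associated factor Xaf1 (-0.79 ± 0.07, adjusted p = 9.4e-07), Parp9 (-0.77 ± 0.08, adjusted p = 3.7e-06), Ddx58 (-0.72 ± 0.08, adjusted p = 4.0e-06), Parp14 (-0.72 ± 0.09, adjusted p = 8.7e-06), Oasl2 (-0.63 ± 0.15, adjusted p = 0.005) and Ifit1 (-0.62 ± 0.13, adjusted p = 0.002). Cxcl10 rose (0.54 ± 0.08, adjusted p = 5.1e-05), and Ccl5 (0.33 ± 0.12, adjusted p = 0.052) and Tap1 (-0.03 ± 0.07, adjusted p = 0.780) did not pass. Single arrays decided 6 of the calls. Stat2 (-0.24) did not pass without any negative control array or Si6 array b or c (-0.26 to -0.18, adjusted p = 0.065 to 0.177), nor with a replicate block (adjusted p = 0.066). Adar (-0.21) did not pass without negative control array c or Si6 array c (-0.17 to -0.15, adjusted p = 0.076 to 0.091). Ifi35 (-0.22, brighter probe set) did not pass without Si6 array c (-0.16, adjusted p = 0.072). Ifit3 (-0.41) did not pass without negative control array a or b or Si6 array a or c (-0.43 to -0.33, adjusted p = 0.050 to 0.118). Isg15 (-0.33) did not pass without negative control array b or Si6 array c (-0.30 to -0.22, adjusted p = 0.054 to 0.077). Mx2 (-0.48) did not pass without negative control array b or Si6 array a (-0.39 to -0.34, adjusted p = 0.054 to 0.058).

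The siRNAs were then compared directly, which needs no control array. Of 37 members 26 differed, 25 higher in Si1 and 1 higher in Si6, beside 27.9% of all genes (14.5% higher and 13.4% lower in Si1), and the median difference of Si1 minus Si6 was 0.37, beside 0.00 over all genes. Higher in Si1 were 7 of 10 sensors, 7 of 8 signalling genes, 9 of 16 effectors and 2 of 3 genes of antigen transport and chemotaxis. Usp18, the protease that removes ISG15 from proteins and damps receptor signalling, was 2.93-fold higher (1.55 ± 0.11, adjusted p = 6.4e-08), Oasl2 2.37-fold (1.25 ± 0.15, adjusted p = 1.2e-05), Ccl5 2.01-fold (1.01 ± 0.12, adjusted p = 1.1e-05) and Stat2 1.77-fold (0.82 ± 0.08, adjusted p = 1.8e-06). Ifi204 was also higher (0.90 ± 0.14, adjusted p = 1.7e-04), but both means, 4.31 in Si1 and 3.41 in Si6, lay among the lowest 25% of genes, so no fold is given. Ifit2 was lower in Si1 (-0.38 ± 0.11, adjusted p = 0.014), a call lost without Si1 array a or Si6 array c (-0.36 to -0.30, adjusted p = 0.052 to 0.079). Between the siRNAs Herc6 (-0.03 ± 0.08, adjusted p = 0.880), Samd9l (-0.03 ± 0.06, adjusted p = 0.791), Parp9 (0.02 ± 0.08, adjusted p = 0.911), Rsad2 (-0.06 ± 0.10, adjusted p = 0.771) and Cxcl10 (-0.05 ± 0.08, adjusted p = 0.720) did not pass. Single arrays decided 4 of the calls higher in Si1. Zbp1 (0.33) did not pass without Si1 array a or b or Si6 array c (0.29, adjusted p = 0.060 to 0.061). Dhx58 (0.26) did not pass without Si1 array c or Si6 array c (0.23, adjusted p = 0.056 to 0.064). Cmpk2 (0.23) did not pass without Si1 array b or c or Si6 array a or c (0.16 to 0.22, adjusted p = 0.102 to 0.217). Oasl1 (0.20) did not pass without Si1 array b or c or Si6 array a or c (0.18 to 0.19, adjusted p = 0.072 to 0.094). The Hif1a level differed in the same contrast (-0.28 ± 0.06, adjusted p = 0.001), which did not pass with the mean of the gene's probe sets (-0.11, adjusted p = 0.173). Its part in the differences was not tested.

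**Figure D2:**
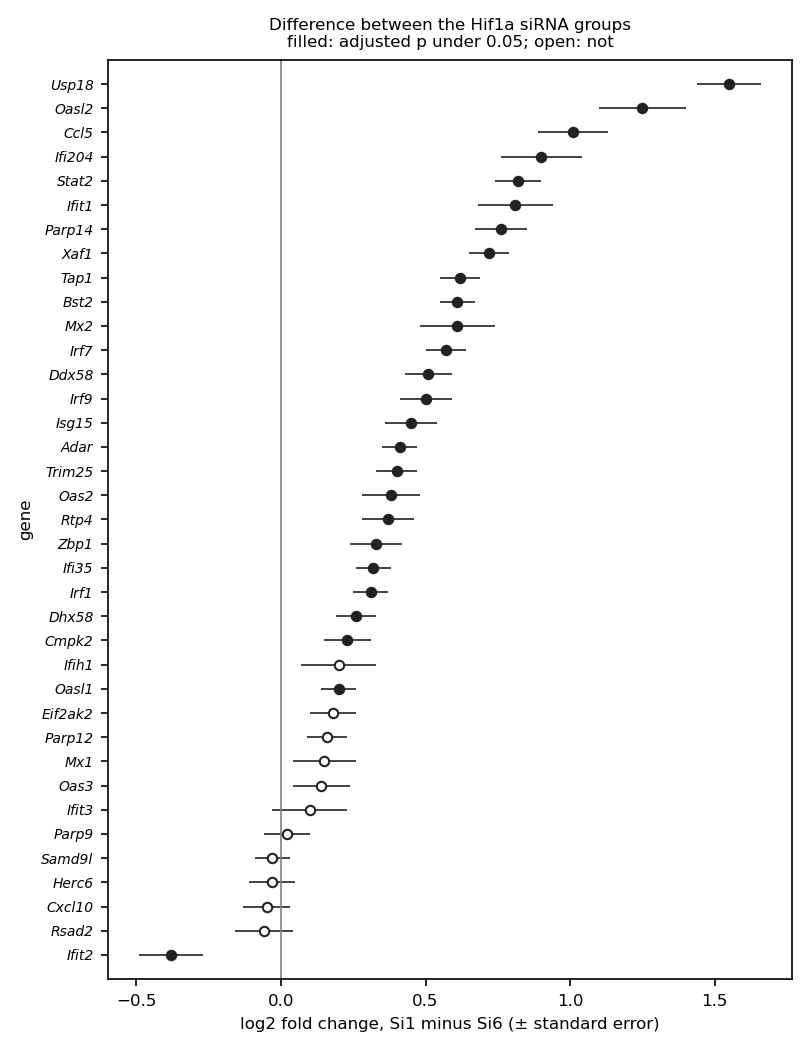
Log2 difference between the siRNA groups, Si1 minus Si6, for each of the 37 measured genes (points, with bars of 1 standard error; filled where the adjusted p is under 0.05). Of the filled points 25 lie right of 0, from Usp18 at 1.55 down, and 1, Ifit2 at -0.38, lies left.

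Against the hypoxia control, the other hypoxic reference, Si1 had 31 of 37 members past the test, 26 higher and 5 lower, beside 37.9% of all genes (20.9% higher and 17.1% lower). Single arrays decided 4 of these calls. Ifi204 (0.41) did not pass without hypoxia control array c or Si1 array b or c (0.25 to 0.32, adjusted p = 0.150 to 0.200). Ifih1 (0.39) did not pass without hypoxia control array a or b or Si1 array a or c (0.35 to 0.39, adjusted p = 0.051 to 0.073). Ifit2 (-0.29) did not pass without hypoxia control array b or c or Si1 array a or c (-0.32 to -0.21, adjusted p = 0.059 to 0.197). Mx1 (-0.32) did not pass without hypoxia control array c or Si1 array c (-0.27 to -0.16, adjusted p = 0.096 to 0.118). Si6 had 15 of 37, 7 higher and 8 lower, beside 29.8% of all genes (16.9% higher and 12.9% lower), with a median of -0.04. The 7 higher in Si6 were Ddx58, Eif2ak2, Herc6, Parp12, Tap1, Cxcl10 and Ccl5, of which Eif2ak2 (0.29) was lost without hypoxia control array b or Si6 array b (0.22, adjusted p = 0.055). Of the 8 lower, Ifi204 (-0.49) was lost without hypoxia control array a or b or Si6 array a (-0.43 to -0.39, adjusted p = 0.068 to 0.087). The choice of control therefore changed the count for Si6 from 25 lower and 1 higher to 8 lower and 7 higher, while the 2 comparisons share the Si6 arrays.

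**Figure D3:**
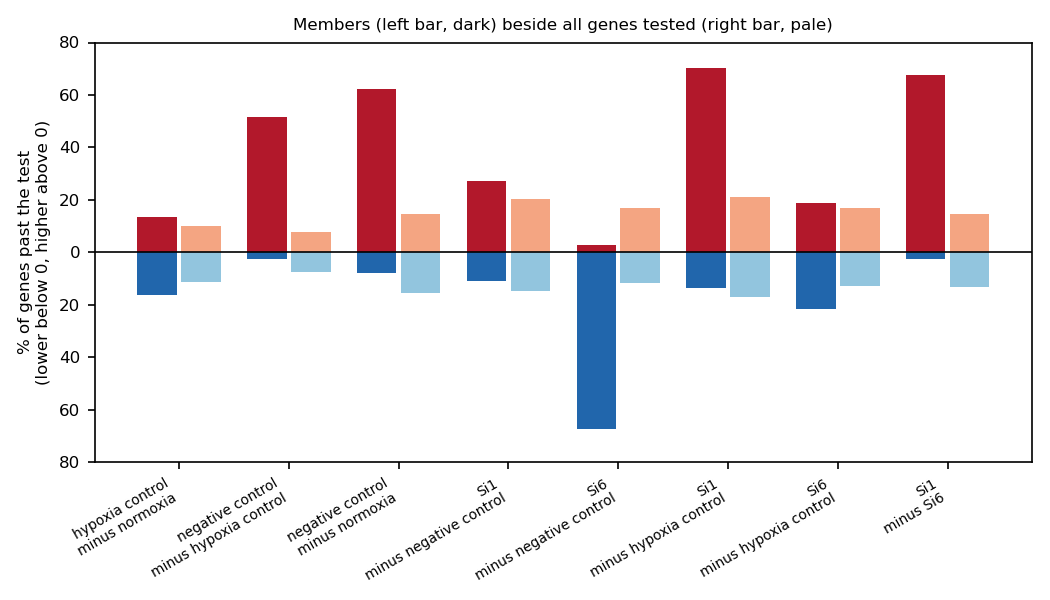
Percent of genes past the test in each of the 8 comparisons, with genes higher in the first-named group above 0 and genes lower in it below 0. The left, dark bar of each pair is the 37 measured interferon response genes and the right, pale bar is all 22180 genes; the lower bar of Si6 minus negative control stands for 25 members and the higher bar of Si1 minus Si6 for 25.

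Among the sensors, 3 had group means at least 1 log2 unit apart. Ddx58, the RNA sensor RIG-I, read 8.82, 9.05 and 9.15 on the normoxia arrays, 9.14, 9.13 and 9.28 under hypoxia control, 10.25, 10.20 and 10.18 in the negative control, 9.87, 10.08 and 10.05 with Si1 and 9.51, 9.50 and 9.47 with Si6. The negative control arrays were the highest, the Si6 arrays lay between those of Si1 and the hypoxia control, and normoxia and hypoxia control arrays overlapped. The hypoxia control and normoxia did not pass against each other (0.18 ± 0.08, adjusted p = 0.137).

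Oasl2, a member of the oligoadenylate synthetase family, read 5.96, 6.35 and 6.09 on the normoxia arrays, 6.56, 6.52 and 6.30 under hypoxia control, 7.66, 7.33 and 7.51 in the negative control, 7.76, 8.14 and 8.44 with Si1 and 6.93, 7.02 and 6.66 with Si6. The Si1 arrays were the highest and no Si6 array reached any negative control array. The gene was dim in normoxia, the hypoxia control and Si6, and Si6 against the hypoxia control did not pass (0.41 ± 0.15, adjusted p = 0.056). Ifi204, a receptor for DNA in the nucleus and cytoplasm, read 3.13, 3.09 and 3.12 on the normoxia arrays, 4.11, 4.02 and 3.58 under hypoxia control, 6.03, 6.10 and 6.09 in the negative control, 3.92, 4.53 and 4.48 with Si1 and 3.27, 3.48 and 3.49 with Si6. The negative control arrays stood above every other array. All 5 group means of this probe set were dim, and a further probe set that carries Ifi204 together with Ifi211, which cannot be assigned to either gene and was not used, had group means of 6.52, 7.93, 9.28, 8.55 and 6.92 in the same order.

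The other 7 sensors had group means within 0.14 to 0.67 log2 units of each other. Ifih1, the RNA sensor MDA5, was highest in the negative control (6.94 ± 0.22) and dim in the other 4 groups, and Eif2ak2 was also highest there (8.71 ± 0.08). Dhx58, a regulator of RIG-I and MDA5, had its highest mean in Si1 (7.26 ± 0.06) next to the negative control (7.20 ± 0.10), and these did not pass against each other (adjusted p = 0.627). Oasl1, Oas2 and Zbp1, a sensor of Z-form nucleic acid, were also highest in Si1, at 7.08 ± 0.07, 6.82 ± 0.18 and 7.09 ± 0.14. Oas3 ran from 6.50 to 6.64.

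In signalling and regulation, Usp18 read 7.16, 7.16 and 7.09 on the normoxia arrays, 7.27, 7.41 and 7.40 under hypoxia control, 8.01, 7.93 and 8.00 in the negative control, 8.75, 9.25 and 9.28 with Si1 and 7.67, 7.61 and 7.36 with Si6. Every Si1 array lay above every other array, and the Si6 arrays overlapped those of the hypoxia control, against which they did not pass (0.18 ± 0.11, adjusted p = 0.269). Stat2 was highest in Si1 (9.17 ± 0.14), with the other group means between 8.35 and 8.59. Irf7, the transcription factor that amplifies interferon production, had means of 7.27 ± 0.07 in normoxia and 7.38 ± 0.07 under hypoxia control, then 7.64 ± 0.10 in the negative control, 7.84 ± 0.09 with Si1 and 7.27 ± 0.08 with Si6.

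The subunit Irf9 (9.00 ± 0.14), the RIG-I ubiquitin ligase Trim25 (7.99 ± 0.10) and the RNA editing enzyme Adar (8.51 ± 0.10) had their lowest mean in Si6. Irf1 had another order, with 7.78 ± 0.09 in normoxia and 7.95 ± 0.07 in Si6 below 8.22 to 8.26 in the hypoxia control, the negative control and Si1. Parp9, an ADP-ribosyltransferase partner of interferon signalling, peaked in the negative control (8.13 ± 0.07) and was at 7.38 ± 0.17 in Si1 and 7.36 ± 0.11 in Si6, near its normoxia mean of 7.42 ± 0.05. A further probe set that carries Parp9 together with Dtx3l, and was not used, had a mean of 8.36 in Si1 and 7.99 in Si6. Both lay under its 8.81 in the negative control. Its means were 7.84 in normoxia and 8.39 in the hypoxia control, so here only Si6 lay near normoxia and Si1 lay at the hypoxia control.

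Among the effectors, 2 had group means at least 1 log2 unit apart. Herc6, the ligase that attaches ISG15 to proteins in the mouse, read 7.42, 7.52 and 7.58 on the normoxia arrays, 7.30, 7.38 and 7.40 under hypoxia control, 8.80, 8.79 and 8.63 in the negative control, 8.68, 8.95 and 8.91 with Si1 and 8.93, 8.94 and 8.75 with Si6. The negative control, Si1 and Si6 arrays overlapped and all 9 stood above the other 6 arrays. Herc6 was 2.61-fold higher in the negative control than in the hypoxia control (adjusted p = 3.5e-08) and 2.85-fold higher in Si6 (adjusted p = 1.3e-09), and neither siRNA group passed against the negative control (0.11 ± 0.08 and 0.13 ± 0.08).

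Samd9l, a restriction factor of poxviruses, read 6.74, 6.78 and 6.73 on the normoxia arrays, 7.67, 7.58 and 7.64 under hypoxia control, 8.04, 7.87 and 8.01 in the negative control, 6.94, 7.03 and 7.00 with Si1 and 6.90, 7.12 and 7.05 with Si6. Both hypoxic groups without Hif1a siRNA were high, and both siRNA groups lay between them and normoxia with no overlap. It was the member with the largest called rise in the hypoxia control against normoxia. Samd9l was below the hypoxia control in Si1 (-0.64 ± 0.06, adjusted p = 6.2e-07) and in Si6 (-0.61 ± 0.06, adjusted p = 2.0e-06).

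**Figure D4:**
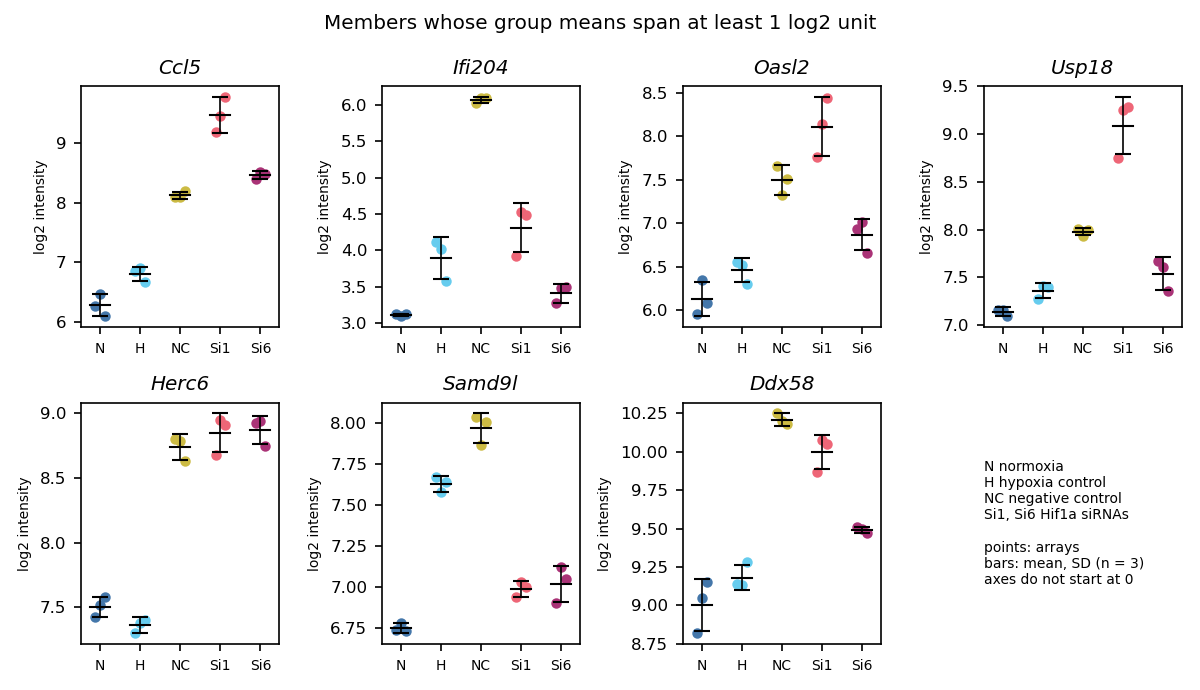
Log2 intensity of the 7 members whose group means span at least 1 log2 unit, with 1 point for each array and bars for the mean and SD of 3 arrays in each group; the vertical axes do not start at 0. Ccl5, Oasl2 and Usp18 are highest in Si1, Ifi204, Samd9l and Ddx58 in the negative control, and Herc6 is alike in the negative control, Si1 and Si6.

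The other 14 effectors had group means within 0.38 to 0.93 log2 units of each other. Ifit1 had means of 6.78 ± 0.23 in normoxia and 6.81 ± 0.06 under hypoxia control, then 7.39 ± 0.07 in the negative control, 7.58 ± 0.26 with Si1 and 6.77 ± 0.19 with Si6, so Si6 lay at the level of the groups without the rise. The same order of high negative control and Si1 and low Si6 was measured for Bst2, the tethering factor that holds virions at the cell surface (7.58 ± 0.09, 7.78 ± 0.04 and 7.17 ± 0.09), for Xaf1 (8.13 ± 0.03, 8.05 ± 0.10 and 7.33 ± 0.15) and for Parp14 (7.37 ± 0.16, 7.40 ± 0.12 and 6.64 ± 0.12). Isg15, the ubiquitin-like modifier, followed at dim levels, from 6.19 ± 0.13 in normoxia to 6.73 ± 0.05 in Si1 and 6.28 ± 0.10 in Si6.

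Ifit2 and Cmpk2 ran the other way. Ifit2 was highest in normoxia (8.22 ± 0.11) and lay between 7.35 and 7.73 in the hypoxic groups, and Cmpk2 fell from 8.91 ± 0.08 in normoxia to 8.55 ± 0.03 in the hypoxia control and 7.98 ± 0.11 in Si6. Rsad2 was also highest in normoxia (7.86 ± 0.15) and lowest in the hypoxia control (7.36 ± 0.17). The GTPases Mx1 and Mx2, whose proteins block viral replication, stayed dim, at 5.02 to 5.50 and 5.15 to 5.76.

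Ccl5, a chemokine for T cells and monocytes, varied most of all members. It read 6.28, 6.48 and 6.10 on the normoxia arrays, 6.85, 6.91 and 6.68 under hypoxia control, 8.09, 8.09 and 8.19 in the negative control, 9.17, 9.45 and 9.76 with Si1 and 8.39, 8.51 and 8.47 with Si6. The 5 groups did not overlap, and Si1 was 9.03-fold above normoxia, which was not among the tested comparisons. Ccl5 was dim in normoxia (6.29 ± 0.19) and the hypoxia control (6.81 ± 0.12), the base groups of this fold and the next. Si6 was 3.12-fold above the hypoxia control (adjusted p = 4.1e-08), and against the negative control it did not pass (0.33 ± 0.12, adjusted p = 0.052). Tap1 was highest in Si1 (9.29 ± 0.12), with Si6 (8.67 ± 0.06) and the negative control (8.70 ± 0.01) alike within their spread. Cxcl10 was low in the hypoxia control (8.28 ± 0.11) and the negative control (8.49 ± 0.07) and high in normoxia (8.92 ± 0.08), Si1 (8.98 ± 0.14) and Si6 (9.04 ± 0.05).

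Beyond the members, 81 of 96 listed genes of the same pathway were measured. Of the 9 interferon ligands 5 were dim in all groups. Among them was Ifnb1, the gene of interferon beta, singled out after its values were seen. Its group means ran from 4.56 to 4.69, with no call in the F test (adjusted p = 0.532). Ifna4, also singled out after its values were seen, was dim in no group. Its mean was 8.97 ± 0.04 in normoxia and 9.32 to 9.56 in the hypoxic groups (F test, adjusted p = 8.0e-05). The other ligands dim in no group, also named after their values were seen, had no such rise. Ifna1 was highest in normoxia (8.81 ± 0.15) and lay at 8.53 to 8.71 in the hypoxic groups (F test, adjusted p = 0.043). Ifnl2 and Ifnl3 had no call in the F test (adjusted p = 0.372 and 0.148). In the hypoxia control against normoxia 1 ligand was higher and 0 were lower, beside 9.87% and 11.2% of all genes. Of 9 receptors and kinases 1 was higher and 7 were lower in Si1 than in Si6. The interferon receptor subunit Ifnar2 had the largest of these differences (-0.65 ± 0.06, adjusted p = 6.6e-07). Of all genes 14.5% were higher and 13.4% lower in that comparison. Of 15 transducers and adaptors 3 were higher and 3 lower (20.0% each), near those shares. The lower ones included the RNA receptor Tlr3 (-0.46 ± 0.05, adjusted p = 6.9e-06) and the kinase Tbk1 (-0.44 ± 0.06, adjusted p = 5.4e-05). Other genes of this list lay higher in Si1 and were named after their values were seen. Ikbke had means of 9.39 ± 0.11 in Si1 and 8.70 ± 0.02 in Si6, and Myd88 of 9.35 ± 0.07 and 8.86 ± 0.09.

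Of 32 other interferon-stimulated genes 17 were higher and 3 lower in the negative control than in the hypoxia control, beside 7.80% and 7.51% of all genes. In Si6 2 were higher and 16 lower than in the negative control, beside 17.0% and 11.9% of all genes. In limma 16 were higher and 0 lower in Si1 than in Si6, beside 14.5% and 13.4% of all genes, and 19 had an unadjusted p under 0.05 in either direction. In the same comparison, with the same shares over all genes, 5 of 9 genes of MHC class I and the immunoproteasome were higher and 1 was lower, and of 7 negative regulators 4 were higher and 1 was lower. The larger differences between the siRNAs were those of the surface protein Ly6e (1.75 ± 0.19, adjusted p = 3.9e-06), Oas1b (1.40 ± 0.12, adjusted p = 2.7e-07) and the membrane restriction factor Ifitm3 (1.37 ± 0.07, adjusted p = 1.7e-09). Ly6e was uneven on the Si1 arrays, at 7.92, 8.98 and 8.97. The Si6 means of Ly6e (6.88 ± 0.04) and Oas1b (6.67 ± 0.13) were dim. The exonuclease Isg20 rose by 1.25 ± 0.09 in the hypoxia control against normoxia (adjusted p = 1.1e-07) and fell against the negative control in Si1 (-0.57 ± 0.09, adjusted p = 1.1e-04) and in Si6 (-1.52 ± 0.09, adjusted p = 8.0e-09). The class I heavy chain H2-K1 had 0.88 ± 0.08 (adjusted p = 6.0e-07), -0.48 ± 0.08 (adjusted p = 9.8e-05) and -1.01 ± 0.08 (adjusted p = 7.8e-08) in the same comparisons. Ifitm3 fell by 0.88 ± 0.07 in the hypoxia control against normoxia (adjusted p = 2.8e-07).

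Markers of pigment cells also differed between the groups, in roughly the reverse order of the members. They were lowest in Si1 and the negative control, where the members were highest, and highest in normoxia. The mean log2 level over 9 melanocyte markers ran from 11.91 to 11.96 on the normoxia arrays, 11.65 to 11.69 under hypoxia control, 11.10 to 11.15 in the negative control, 10.85 to 10.89 with Si1 and 11.43 to 11.52 with Si6. In Si1 9 of 9 markers were lower than in Si6, beside 13.4% of all genes. Their part in the interferon results was not tested. Of 7 leukocyte markers 5 were dim in all groups, Ptprc, the pan-leukocyte CD45, at 4.43 to 4.58, and the summed list averaged 6.11 to 6.38 across all arrays. The lysosomal protein gene Cd68 was highest in Si1 (9.65 ± 0.13) and lowest in normoxia (7.93 ± 0.17). The leukocyte marker Lyz2, dim in 3 groups, ran the other way, with 6.65 ± 0.22 in Si1 and 7.26 ± 0.12 in normoxia. All 5 keratinocyte and all 4 endothelial markers measured were dim in all groups, as were 3 of 6 fibroblast markers. The fibroblast markers Col1a1 (7.96 to 9.35) and Thy1 (7.06 to 7.49) were dim in no group.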

How the data were processed

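The authors deposited 1 table of log2 intensities for 15 arrays and 41345 probe sets. RMA (background correction, quantile normalization and probe summary) and Partek are named, without version or order, per the submitters' processing notes, which name no filter. Such normalization hides a shift of all genes and compresses dim genes. Of the probe sets 23521 had exactly 1 gene symbol in the platform annotation, 1814 several and 16010 none, and those with 1 gave 22180 genes. Symbols were checked against RefSeq by Entrez identifier (23328 found, 193 not found, 0 changed).

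In R 4.3.3, limma 3.58.1 modelled the 15 arrays by 5 group means without covariates, with moderated variances (eBayes), 8 two-sided contrasts, Benjamini-Hochberg adjustment over all genes and a threshold of 0.05. The median standard error of a difference was 0.076. The number of arrays limits the precision. The script was tested on simulated data. Members whose group means spanned at least 1 log2 unit are given array by array, and up to 3 rises and 3 falls of the pathway list may be named in a comparison. Ifnb1, Ifna1, Ifna4, Ifnl2, Ifnl3, Ikbke and Myd88 were named outside this rule, after their values were seen. The members and lists were chosen with earlier results of these data known. Alternatives were quantile normalization, median centring, filters on the lowest 25% or 50% of genes, averaged probe sets, robust eBayes with a trend, array weights, only the compared groups, the replicate letter as a block, the lowest 25% as the dim line, and leaving out each array. Probe sets with several symbols and scanner files were not used here.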

Additional observations from a re-analysis of the deposited data

Results flagged for a closer look

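Genes are given here whose response differed between the siRNAs by a direct test, Si1 minus Si6, in log2 units with limma and adjustment over all genes. Among the sensors these were Oasl2 (1.25), Ifi204 (0.90), Ddx58 (0.51), Oas2 (0.38), Zbp1 (0.33), Dhx58 (0.26) and Oasl1 (0.20). In signalling and regulation they were Usp18 (1.55), Stat2 (0.82), Irf7 (0.57), Irf9 (0.50), Adar (0.41), Trim25 (0.40) and Irf1 (0.31). Among the effectors they were Ifit1 (0.81), Parp14 (0.76), Xaf1 (0.72), Bst2 (0.61), Mx2 (0.61), Isg15 (0.45), Rtp4 (0.37), Ifi35 (0.32) and Cmpk2 (0.23), all higher in Si1, and Ifit2 (-0.38), higher in Si6. Ccl5 (1.01) and Tap1 (0.62) were higher in Si1. The Ifi35 value is that of the brighter probe set, and the dimmer had means of 7.01 in Si1 and 7.03 in Si6.

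Outside the members, 42 of the 81 measured genes of the pathway list passed this test, 29 higher and 13 lower in Si1, and the list that follows is partial. It gives the 13 that were among the 3 largest rises or falls of the pathway list in at least 1 of 5 comparisons (this one, hypoxia control against normoxia, negative control against hypoxia control, and each siRNA against the negative control). Ly6e (1.75), Oas1b (1.40), Ifitm3 (1.37), Sp100 (1.19), Isg20 (0.95), H2-K1 (0.54), Uba7 (0.42) and Lgals3bp (0.29) were higher in Si1, and Ifnar2 (-0.65), Tlr3 (-0.46), Tbk1 (-0.44), Erap1 (-0.19) and Ifnlr1 (-0.18) were lower. Hif1a, the target of both siRNAs, was lower in Si1 (-0.28). The calls of Zbp1, Dhx58, Oasl1, Cmpk2, Ifit2, Erap1 and Ifnlr1 were lost when certain single arrays were left out, as with Erap1 without Si1 array a or b or Si6 array b or c (-0.18 to -0.16, adjusted p = 0.059 to 0.081) and Ifnlr1 without Si1 array a or c or Si6 array a or b (-0.18 to -0.14, adjusted p = 0.075 to 0.167). With the mean of probe sets Lgals3bp (0.15, adjusted p = 0.059) and Hif1a (-0.11, adjusted p = 0.173) did not pass. No part of these differences was tested against a cause.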

How the results depend on the processing

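No call on a member in the 8 comparisons reversed under any alternative run, and no total count of called members moved by more than 1.5 times. The split into higher and lower was less stable. For Si1 against the negative control, quantile normalization turned 10 higher and 4 lower into 8 higher and 9 lower. With the dim line at the lowest 25% of genes instead of the median, 1 member in place of 7 was dim in all groups. Leaving out each array in turn, the called members numbered 9 to 11 for the hypoxia control against normoxia, 17 to 20 for the negative control against the hypoxia control, 23 to 25 for the negative control against normoxia, 10 to 14 for Si1 and 21 to 25 for Si6 against the negative control, 27 to 31 for Si1 and 13 to 17 for Si6 against the hypoxia control, 21 to 27 between the siRNAs and 34 to 35 in the F test. With the replicate block the counts were 10, 19, 25, 14, 26, 30, 15 and 26 in that order, and 35 in the F test. Same-lettered arrays did not deviate together (30 pairs, r from -0.22 to 0.21, 3 over 0.1), so the letters were not taken to pair the samples. Of the calls, 21 of 26 between the siRNAs, 20 of 26 in Si6 and 9 of 14 in Si1 against the negative control passed in every fit that left out an array. What depth allows at low signal is unknown, since the values hold no background or detection measure. With 3 arrays in each group, single arrays decided calls on members of up to 0.49 log2 units in size (Ifi204 in Si6 against the hypoxia control).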
